A study of Mus musculus with 6 samples.

Results

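The enzymes and regulators of thioredoxin and glutathione defence were followed through 6 ribosome-bound mRNA samples of the adult mouse dentate gyrus, 3 from Klf9 +/+ and 3 from Klf9 f/f mice. The set comprised 10 named genes of the 37620 in the count files, given by a list of gene names. They were the thioredoxin reductases Txnrd1 and Txnrd2, the thioredoxins Txn1 and Txn2, both subunits of the enzyme that starts glutathione synthesis (Gclc and Gclm), the peroxidase Gpx1, the superoxide dismutase Sod2, the transcription factor gene Nfe2l2 and the heme oxygenase gene Hmox1. All 10 were among the 15056 genes tested, and their counts ranged from 439 to 17479 reads in a sample, so none was near the filter on low values. Both groups carried Gli1-CreERT2 and the RiboTag allele, which adds an HA tag to the ribosomal protein RPL22 in cells with Cre activity, and by their labels only the Klf9 alleles differed between them. Cre is driven by Gli1, so any cell type with Gli1 activity can be tagged. The mice were 2 to 3 months old and received 3 injections of tamoxifen (TAM) at 250 mg/kg, 12 hr apart, and tissue was taken 4 days after the last of them. Each sample pooled 6 dentate gyri from 3 mice, and the HA-tagged ribosomes with their mRNAs were pulled down with an antibody. The recombined cells are those of the Gli1 lineage, which the labels call radial-glia-like neural stem cells (RGLs), and no input RNA was analysed here.

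Cells remove peroxides through a pair of thiol systems. In the first, thioredoxin reductase passes electrons from NADPH to thioredoxin, with Txnrd1 and Txn1 in the cytosol and Txnrd2 and Txn2 in mitochondria. In the second, glutathione, built in steps that begin with glutamate-cysteine ligase, serves peroxidases such as Gpx1. The factor Nrf2, encoded by Nfe2l2, binds antioxidant response elements (AREs) and is known to drive many of these genes, including Txnrd1, Gclc, Gclm and Hmox1. Klf9 belongs to the zinc finger factors that bind GC-rich DNA, and it has been described elsewhere as a repressor of Txnrd2, which is the question that the Klf9 f/f comparison puts to these genes.

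The sequences before the start sites of Txnrd2, Txnrd1 and Gclm are shown because the first is the gene named as a Klf9 target and the others are known Nrf2 targets whose windows hold both motifs searched. RefSeq promoter entries of GRCm38.p6 matched 8 of the 10 genes, with 10 start sites in all, and Gclc and Hmox1 are named only. The 250 bases before each start were searched on both strands for the ARE core TGACNNNGC and for the GC box GGGCGG, which shared no base in any of these windows. Their coordinates are of that build, and the gene positions given further on are of mm9. Capitals mark the matches, and each sequence is written 5′ to 3′ on the gene's strand, the plus strand for all 3 genes.
Txnrd2, chr16:18426167-18426416, GC box 78 bases before the start: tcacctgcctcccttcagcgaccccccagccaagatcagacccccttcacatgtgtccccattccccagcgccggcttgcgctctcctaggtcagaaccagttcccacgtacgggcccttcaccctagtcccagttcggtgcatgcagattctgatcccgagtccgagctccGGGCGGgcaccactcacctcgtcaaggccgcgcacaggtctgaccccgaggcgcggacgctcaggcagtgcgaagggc
Txnrd1 start site 2, chr10:82858956-82859205, GC box 196 bases and ARE core on the opposite strand 92 bases before the start: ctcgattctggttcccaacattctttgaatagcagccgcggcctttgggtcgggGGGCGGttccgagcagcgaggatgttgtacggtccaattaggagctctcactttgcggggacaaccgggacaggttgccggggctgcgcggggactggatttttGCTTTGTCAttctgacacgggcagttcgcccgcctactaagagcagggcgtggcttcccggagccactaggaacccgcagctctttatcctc
Gclm, chr3:122245307-122245556, ARE core on the opposite strand 134 bases before the start and GC boxes at 166, 37 and 23 bases: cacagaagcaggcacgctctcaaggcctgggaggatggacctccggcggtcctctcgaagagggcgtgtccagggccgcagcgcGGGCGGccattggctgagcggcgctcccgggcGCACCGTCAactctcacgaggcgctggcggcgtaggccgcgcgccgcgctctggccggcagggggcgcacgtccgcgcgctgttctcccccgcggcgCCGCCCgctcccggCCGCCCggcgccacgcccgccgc
The ARE core was found in 3 of the 10 windows, those of Txnrd1 start site 2, Gclm and Nfe2l2, and in 10.2% of all 32851 promoter entries. A GC box was found in 7 of the 10 windows and in 32.7% of all entries. These matches are letters in a window, and binding was not measured here.

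The samples held 21594714 to 66343759 reads on genes. The library names fall into a series YTa22, with replicates 1 and 2 of each genotype, and a series YTa32, with replicate 3 of each, which holds the 2 shallowest samples. Klf9 was lower in every Klf9 f/f sample, with 200.7, 203.7 and 138.9 CPM (counts scaled to library size) in Klf9 +/+ against 114.1, 121.2 and 119.9 CPM, so reads on the gene remained. Recombination deletes exon 1 by the study's description, and these counts cover all exons of the gene. They thus do not tell intact transcript from transcript without exon 1. The log2 fold change of Klf9 was -0.59 ± 0.15 (SE; adjusted p = 0.844, edgeR quasi-likelihood test, Benjamini-Hochberg adjusted). Klf9 thus passed the threshold used below but not an adjusted p under 0.05. Within the series its log2 difference was -0.78 in YTa22 and -0.21 in YTa32. The 9 radial glia markers were detected in every sample, with summed levels of 3076 to 4250 CPM in Klf9 +/+ and 3741 to 3781 CPM in Klf9 f/f, and 0 of 9 passed the threshold used below. Markers of other cell types were detected as well, and several lists moved with the genotype. All astrocyte markers were higher in Klf9 f/f, and 5 of 10 passed that threshold. All choroid plexus, mural, endothelial, erythroid and meningeal markers were lower, and 8 of 8, 5 of 8, 3 of 8, 5 of 5 and 1 of 8 passed it. Of all genes tested, 4.32% passed it. No marker had an adjusted p under 0.05 (edgeR quasi-likelihood test, Benjamini-Hochberg adjusted). In such pooled tissue, a change in the number of cells of a type and a change in RNA per cell cannot be told apart.

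In Klf9 f/f, the fitted levels of the redox and glutathione defence genes lay between 0.889 times (Txn1) and 1.22 times (Hmox1) those in Klf9 +/+, and none of these differences passed a test. At the threshold of the study's methods (1.2-fold and an unadjusted p under 0.05), 0 of 10 genes were called, against 4.32% of all genes tested. At an adjusted p under 0.05 (edgeR quasi-likelihood test, Benjamini-Hochberg adjusted), 0 of 10 were called, against 0% of all genes, of which 650 had an unadjusted p under 0.05 and 58 and 39 passed in the likelihood-ratio test and in DESeq2. The number with an unadjusted p under 0.05 was also 0 of 10, and the edgeR likelihood-ratio test and DESeq2 called 0 of 10 as well. A total of 6 genes were higher in Klf9 f/f and 4 lower, and the median of their log2 fold changes was 0.046, against 0.001 over all genes tested. The median size of the change, without its sign, was 0.091 on the log2 scale for the 10 genes and 0.12 over all genes tested. Hmox1 was the only one of the 10 whose Klf9 f/f samples all lay above all Klf9 +/+ samples. That is 1 of 10, where 3.39% of all genes tested had groups that did not overlap in either direction.

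**Figure D1:**
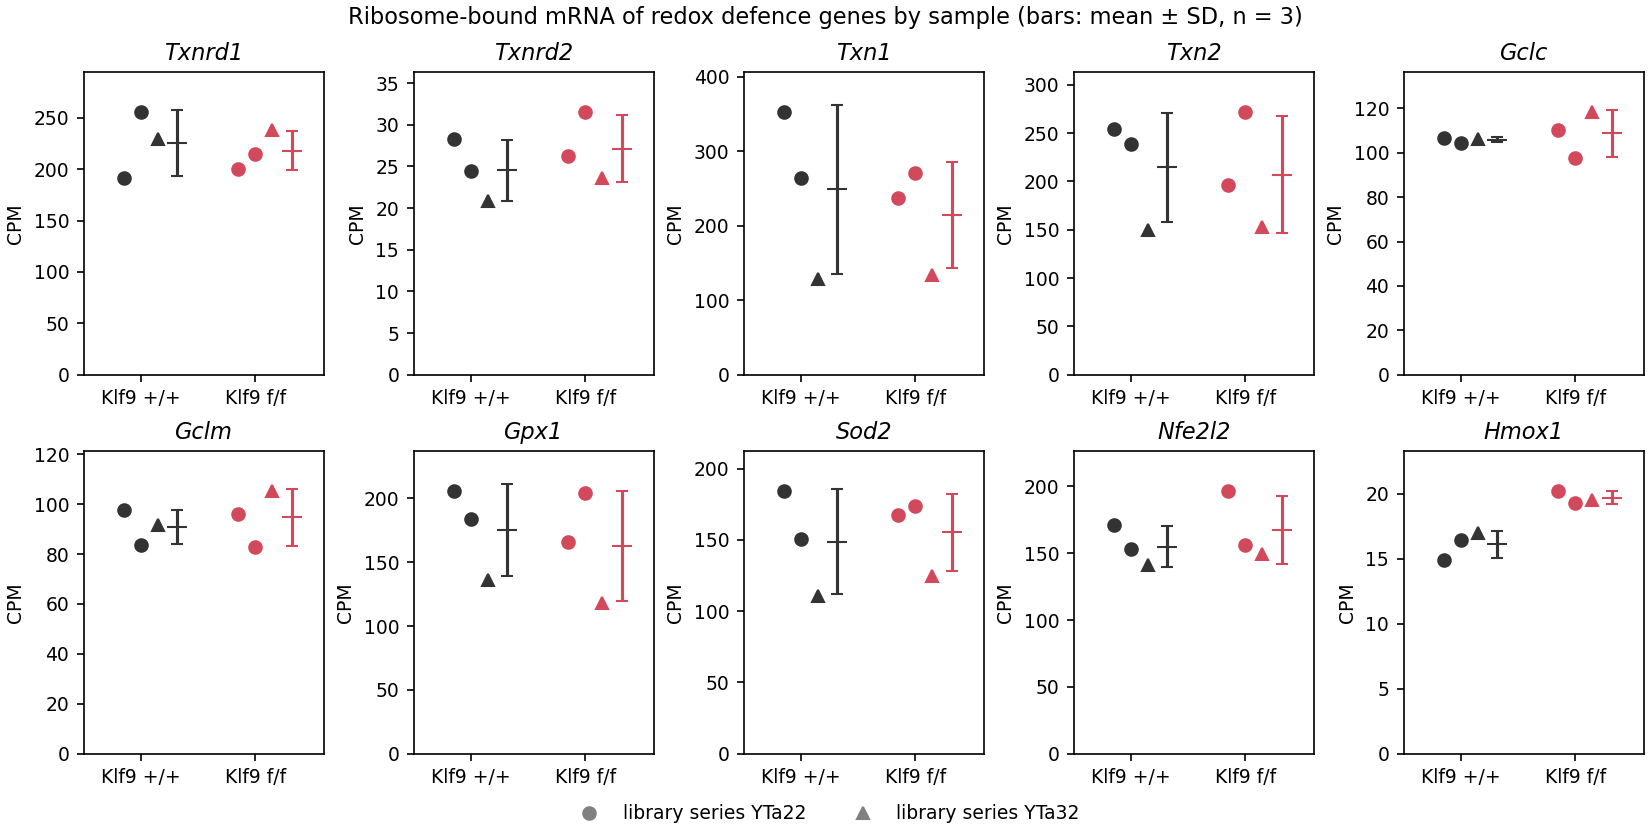
Ribosome-bound mRNA of the 10 redox defence genes in CPM (y axes, starting at 0) in the 3 Klf9 +/+ and 3 Klf9 f/f samples, with circles for library series YTa22, triangles for YTa32 and bars for mean ± SD. The groups overlap in 9 panels, and in the Hmox1 panel the Klf9 f/f samples (19.3 to 20.3 CPM) sit above the Klf9 +/+ samples (14.9 to 17.0 CPM).

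Of the thioredoxin system, the mitochondrial reductase Txnrd2 was the member with a stated link to Klf9. Txnrd2 (ENSMUSG00000075704, mm9 chr16:18426510-18479166, plus strand) had 28.3, 24.4 and 20.9 CPM in replicates 1, 2 and 3 of Klf9 +/+, against 26.2, 31.6 and 23.7 CPM in the same order for Klf9 f/f. The highest value was in Klf9 f/f replicate 2 and the lowest in Klf9 +/+ replicate 3, and the groups overlapped. The level was 24.5 ± 3.70 CPM (SD, n = 3) in Klf9 +/+ and 27.2 ± 4.04 CPM (SD, n = 3) in Klf9 f/f. The log2 fold change was 0.15 ± 0.15 (SE; adjusted p = 1.00, edgeR quasi-likelihood test, Benjamini-Hochberg adjusted). Its 95% interval ran from 0.883-fold to 1.39-fold, bounds within which these samples leave both a higher and a lower Txnrd2 level possible.

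Txnrd1 (ENSMUSG00000020250, chr10:82296696-82360469, plus strand), the cytosolic reductase, had levels of 191.2, 255.9 and 229.0 CPM in the Klf9 +/+ samples and of 200.4, 215.2 and 238.2 CPM in the Klf9 f/f samples. The Klf9 +/+ samples held both the lowest and the highest value. Its log2 fold change was -0.052 ± 0.15 (SE), and its interval ran from 0.765-fold to 1.22-fold.

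The substrate of Txnrd1, the cytosolic thioredoxin Txn1 (ENSMUSG00000028367, chr4:57956245-57969283, minus strand), stood at 353.0, 264.5 and 128.5 CPM in Klf9 +/+. In Klf9 f/f it reached 237.7, 270.4 and 133.7 CPM. In both genotypes replicate 3 was far below the others, and the spread within a genotype exceeded the difference between genotypes. Txn1 had a log2 fold change of -0.17 ± 0.16 (SE), the lowest value among the 10 genes. Without Klf9 +/+ replicate 1 it was -0.009, above the -0.15 of Txnrd1 in the same setting.

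The mitochondrial thioredoxin Txn2 (ENSMUSG00000005354, chr15:77745477-77759436, minus strand) had levels of 254.6, 238.7 and 149.9 CPM in the Klf9 +/+ samples and of 195.9, 272.1 and 152.5 CPM in the Klf9 f/f samples. Replicate 3 was again the lowest of each genotype, and the groups overlapped. Its log2 fold change was -0.042 ± 0.15 (SE).

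The balance of the paired enzymes was also compared within samples, per kb of exon. The Txnrd1 level was 7.81 ± 1.91 times that of Txnrd2 (SD, n = 3) in Klf9 +/+ and 6.79 ± 1.40 times in Klf9 f/f (n = 3; exact permutation test, two-sided, p = 0.6). The Txn1 level was 4.47 ± 1.06 times that of Txn2 in Klf9 +/+ and 4.12 ± 0.683 times in Klf9 f/f (n = 3 each; exact permutation test, two-sided, p = 0.8). Both ratios overlapped between the genotypes, and 3 samples against 3 cannot give an exact p under 0.1. The permutations took no account of the library series. Within series YTa22 the Txnrd1 to Txnrd2 ratio was 5.61 and 8.70 in Klf9 +/+ and 6.35 and 5.66 in Klf9 f/f, and in YTa32 it was 9.11 and 8.36. The Txn1 to Txn2 ratio was 5.55 and 4.44 in Klf9 +/+ and 4.86 and 3.98 in Klf9 f/f within YTa22, and 3.43 and 3.51 in YTa32. Within YTa22 both ratios overlapped between the genotypes, and YTa32 gives no spread.

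The subunits of glutamate-cysteine ligase were the steadiest of the set. Gclc (ENSMUSG00000032350, chr9:77602342-77642292, plus strand), the catalytic subunit, had levels of 106.7, 104.5 and 106.3 CPM in the Klf9 +/+ samples and of 110.3, 97.5 and 118.5 CPM in the Klf9 f/f samples. The Klf9 +/+ samples lay within the range of the Klf9 f/f samples. Gclc had a log2 fold change of 0.036 ± 0.13 (SE), and its interval ran from 0.842-fold to 1.25-fold. Gclm (ENSMUSG00000028124, chr3:121948475-121972902, plus strand), the modifier subunit that raises the activity of Gclc, had levels of 97.5, 83.6 and 91.6 CPM in the Klf9 +/+ samples and of 96.1, 82.7 and 105.4 CPM in the Klf9 f/f samples. Klf9 f/f replicate 2 was the lowest Klf9 f/f sample for both subunits and replicate 3 the highest. For Gclm the log2 fold change came to 0.055 ± 0.14 (SE). Over all 6 samples the range of log2 CPM was 0.28 for Gclc and 0.35 for Gclm, the narrowest ranges of the 10 genes, against 1.46 for Txn1. The Gclc level per kb was 1.75 ± 0.117 times that of Gclm (SD, n = 3) in Klf9 +/+ and 1.73 ± 0.042 times in Klf9 f/f (n = 3; exact permutation test, two-sided, p = 0.8), with 1.64 and 1.88 against 1.72 and 1.77 within YTa22 and 1.74 against 1.69 in YTa32. Of the exon bases of Gclm, 5.76% overlap a noncoding RNA, Gm17494, on the other strand.

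The enzymes that act on peroxide and superoxide themselves also overlapped between the genotypes. Gpx1 (ENSMUSG00000063856, chr9:108241607-108242671, plus strand), a selenoprotein that reduces hydrogen peroxide with glutathione, had levels of 206.0, 183.7 and 135.8 CPM in the Klf9 +/+ samples and of 165.7, 204.2 and 118.2 CPM in the Klf9 f/f samples. The lowest sample of each genotype was replicate 3. Between the genotypes, Gpx1 differed on the log2 scale by -0.12 ± 0.14 (SE). Sod2 (ENSMUSG00000006818, chr17:13200705-13210985, plus strand), the mitochondrial enzyme that turns superoxide into hydrogen peroxide, had levels of 184.5, 150.5 and 110.9 CPM in the Klf9 +/+ samples and of 167.3, 173.9 and 124.5 CPM in the Klf9 f/f samples. Its highest and lowest values were both in Klf9 +/+. The log2 difference of Sod2 between the genotypes was 0.073 ± 0.13 (SE), and 0.003 without Klf9 +/+ replicate 2. In mm9, 25.5% of the 50-base windows of the Sod2 exons occur again elsewhere in the genome, so reads from those windows can match several places.

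Nfe2l2 (ENSMUSG00000015839, chr2:75513570-75542698, minus strand), which encodes Nrf2, had levels of 171.2, 152.9 and 141.0 CPM in the Klf9 +/+ samples and of 196.8, 156.0 and 149.3 CPM in the Klf9 f/f samples. Klf9 f/f replicate 1 was the highest sample, and the other Klf9 f/f samples lay among the Klf9 +/+ samples. The log2 fold change was 0.11 ± 0.14 (SE), and 0.004 without Klf9 f/f replicate 1. Nrf2 is controlled largely by the stability of the protein, which these mRNA counts do not measure.

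Hmox1 (ENSMUSG00000005413, chr8:77617490-77624495, plus strand) encodes heme oxygenase, which breaks heme down to biliverdin, iron and carbon monoxide. Its level was 14.9, 16.4 and 17.0 CPM in replicates 1, 2 and 3 of Klf9 +/+, against 20.3, 19.3 and 19.5 CPM for Klf9 f/f. The Klf9 f/f samples were thus all above the Klf9 +/+ samples. The level was 16.1 ± 1.06 CPM (SD, n = 3) in Klf9 +/+ and 19.7 ± 0.491 CPM (SD, n = 3) in Klf9 f/f. The log2 fold change was 0.29 ± 0.14 (SE), with an interval from 0.976-fold to 1.53-fold (adjusted p = 1.00, edgeR quasi-likelihood test, Benjamini-Hochberg adjusted). Hmox1 thus did not pass the threshold, and it passed under 0 of 13 other settings, with log2 fold changes of 0.24 to 0.34. Of the astrocyte markers, 10 of 10 were higher in Klf9 f/f and 5 of 10 were called, though each of the 10 overlapped between the genotypes. Their summed level was 11710 to 14600 CPM in Klf9 +/+ and 14650 to 17680 CPM in Klf9 f/f, a narrow separation, while their mean log2 CPM overlapped, at 8.73 to 9.03 and 8.87 to 9.52. Macrophages are known to express Hmox1. The sum of the microglia and macrophage list overlapped between the genotypes, at 87.1 to 120.2 CPM in Klf9 +/+ and 91.8 to 120.6 CPM in Klf9 f/f. In that list 6 genes were higher and 4 lower in Klf9 f/f, with 0 of 10 called. Its macrophage markers Mrc1 and Cd163, at 0.24 to 3.62 CPM, were among the lower ones, with log2 fold changes of -0.99 and -0.78. No gene of either list was at 0 in any sample, and the part of these cells in the Hmox1 level was not tested.

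**Figure D2:**
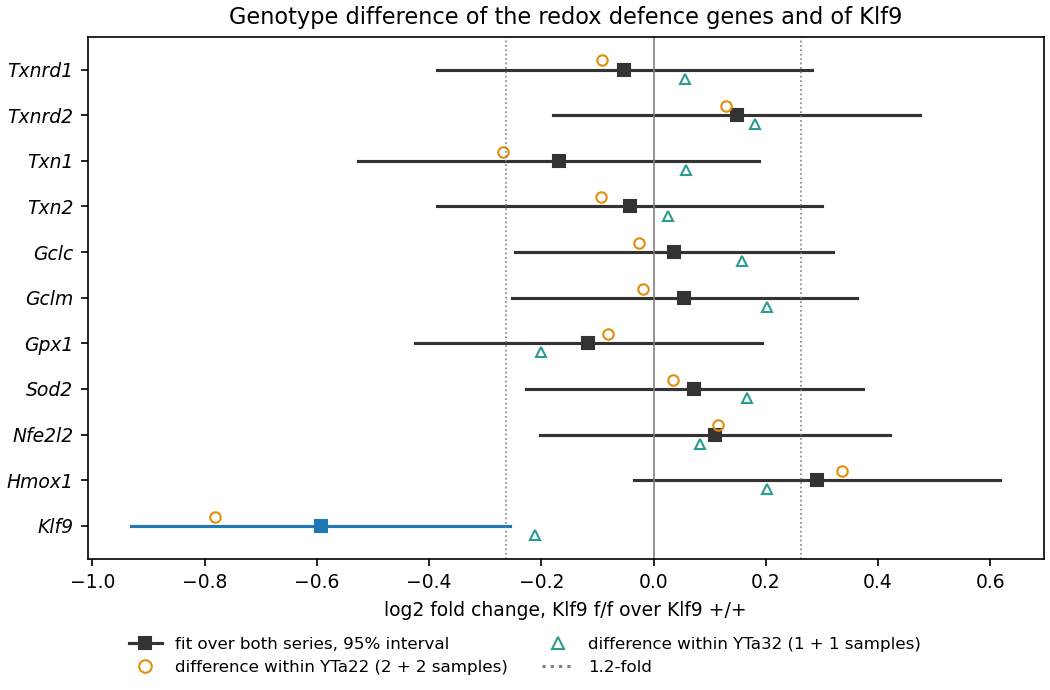
Log2 fold change of Klf9 f/f over Klf9 +/+ (x axis) for the 10 redox defence genes and Klf9, with squares and lines for the fit over both library series and its 95% interval, and open symbols for the difference within each series. The intervals of the 10 genes span 0, from -0.53 for Txn1 at the low end to 0.62 for Hmox1 at the high end, while that of Klf9 lies below 0.

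Within the library series, 5 genes had the same direction in both and 5 the opposite. Txnrd2 differed by 0.13 on the log2 scale between the genotypes in series YTa22 and by 0.18 in series YTa32, which has a single sample of each genotype and so no estimate of spread. For Hmox1 the differences were 0.34 and 0.20, and for Nfe2l2 0.12 and 0.082. Sod2 (0.034 and 0.17) and Gpx1 (-0.081 and -0.20) also kept their sign. Txn1 was at -0.27 in series YTa22 and at 0.057 in series YTa32, the widest gap of the genes that changed sign. The others that changed sign were Txnrd1, Txn2, Gclc and Gclm, each between -0.094 and -0.018 in YTa22 and between 0.025 and 0.20 in YTa32. The difference between the series was itself tested as an interaction, and 0 of 10 genes and 0 genes in all had an adjusted p under 0.05 (edgeR quasi-likelihood test, Benjamini-Hochberg adjusted, 2 residual degrees of freedom), with 231 genes at an unadjusted p under 0.05 and no other tool run.

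Compared per length of exon, the levels of the 10 genes differed widely. The length is the union of all annotated exons of a gene, and the lengths of the transcripts present were not measured. Txn1 and Gpx1 were at the top, with medians over the 6 samples of 238.9 and 206.2 CPM per kb and ranges that overlapped, at percentiles 98.7 and 98.2 of the genes tested. Below a gap came Txnrd1 (55.3), Txn2 (51.6), Sod2 (41.6) and Nfe2l2 (40.7 CPM per kb), each overlapping the next in the order. Gclc followed at 31.1 CPM per kb, with a range that overlapped that of Sod2 but not that of Nfe2l2. Gclm, at 18.3 CPM per kb, overlapped none of the others. Hmox1 (8.39) and Txnrd2 (7.58 CPM per kb) were the lowest and overlapped each other, at percentiles 57.7 and 55.3 of the genes tested. By this measure the mitochondrial reductase had the lowest median mRNA level of the set, and the thioredoxin genes had higher medians than the reductase of the same compartment.

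**Figure D3:**
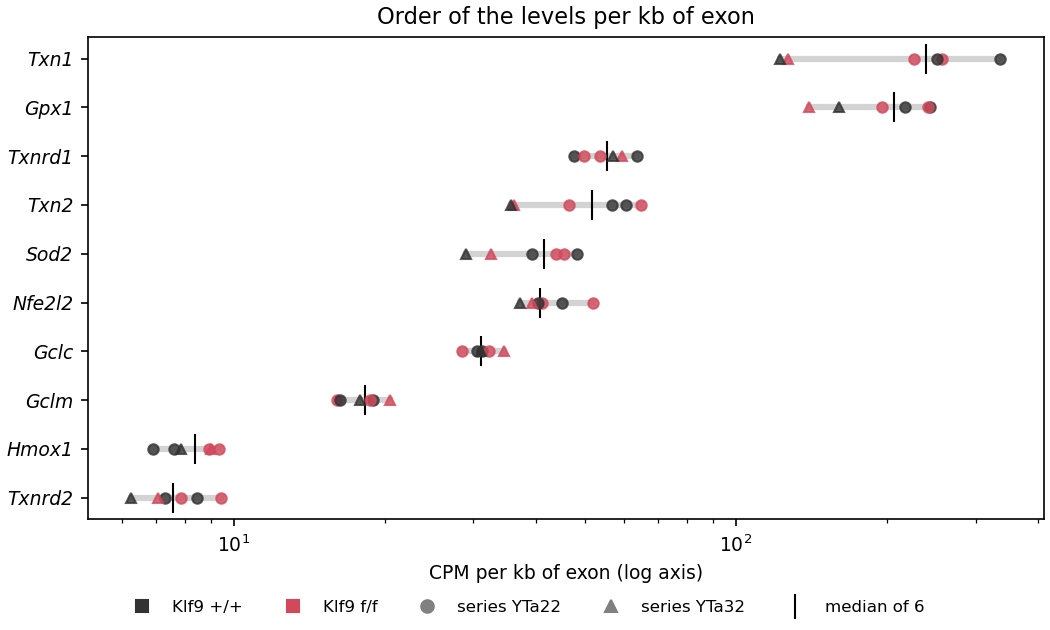
Level of each redox defence gene in CPM per kb of exon (x axis, log scale) in the 6 samples, coloured by genotype, with symbols for the library series, a grey bar for the range and a tick for the median. Txn1 and Gpx1 lie at 122 to 336 CPM per kb, apart from the other genes, and Hmox1 and Txnrd2 lie lowest, at 6.26 to 9.46 CPM per kb.

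Some of the redox defence genes differed between the library series. Txn1, Txn2, Gpx1 and Sod2 were lower in both samples of series YTa32 than in all 4 samples of YTa22. These 4 of 10 genes passed an adjusted p under 0.05 and 0 of 10 were higher, where 29.5% of all genes tested passed in either direction and 16.6% were lower. Txn1 had the largest difference of the 10, with a log2 difference of -1.09 and a standard error of 0.18 (adjusted p = 0.00498, edgeR quasi-likelihood test, Benjamini-Hochberg adjusted). Txn2 differed by -0.67, Gpx1 by -0.58 and Sod2 by -0.52, with adjusted p of 0.0176, 0.0196 and 0.0257 from the same edgeR test. Gclc, Gclm, Txnrd1 and Hmox1 differed by 0.049 to 0.13 between the series, with no call. Series YTa32 also had a higher share of reads outside genes or not assigned (25.9% to 26.6% against 16.4% to 19.1%). Of genes with under 1.5 kb of exon, such as Txn1 and Gpx1, 54.7% were lower in YTa32, against 6.57% of genes of 3 kb and over, such as Txn2 and Sod2. The part of exon length, depth and read assignment in these differences was not tested. Since each series holds both genotypes, the genotype fit carried a term for it.

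**Figure D4:**
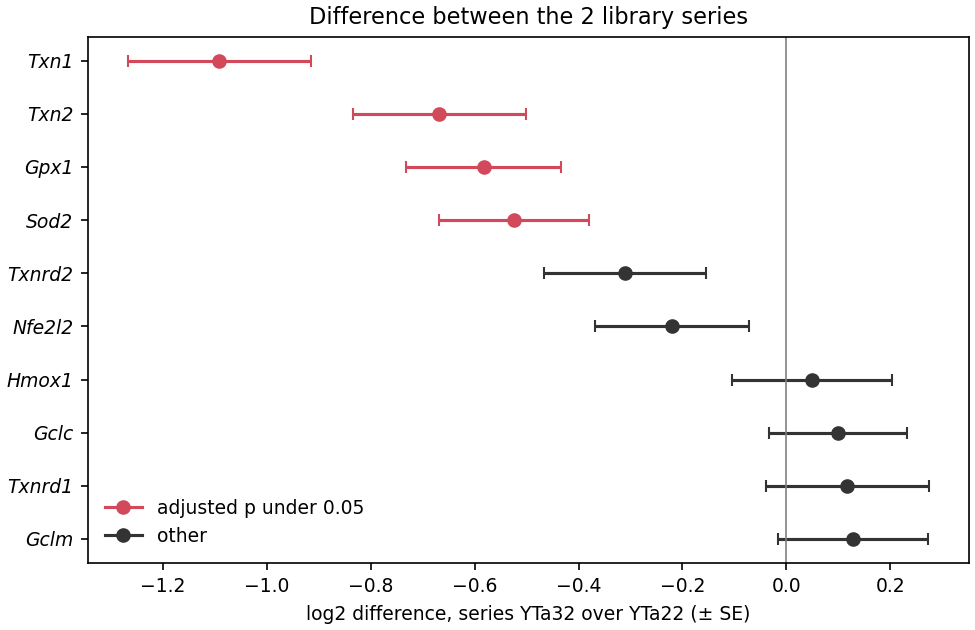
Log2 difference of library series YTa32 over YTa22 (x axis, bars ± SE) for the 10 redox defence genes, with red for an adjusted p under 0.05. Txn1, Txn2, Gpx1 and Sod2 lie at -1.09 to -0.52, and the other genes lie between -0.31 and 0.13.

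The surrounding pathways were read from a list of 85 redox genes in 10 roles, which includes the 10 genes above. Of 84 genes tested, 45 were higher in Klf9 f/f and 39 lower, and their median on the log2 scale was 0.006. At 1.2-fold and an unadjusted p under 0.05, 0 were called up and 2 down, Slc7a11 and Bach1, a lower share than the 4.32% over all genes tested. With an adjusted p under 0.05 there were 0 of 84 (edgeR quasi-likelihood test, Benjamini-Hochberg adjusted).

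Slc7a11 (chr3:50168858-50247535, minus strand), the cystine carrier that supplies cysteine for glutathione, had levels of 56.3, 87.2 and 124.8 CPM in the Klf9 +/+ samples and of 66.4, 34.3 and 60.7 CPM in the Klf9 f/f samples. Klf9 +/+ replicate 1 lay below 2 Klf9 f/f samples, so the groups overlapped. It fell by 0.69 on the log2 scale, with a standard error of 0.26 (adjusted p = 1.00, edgeR quasi-likelihood test, Benjamini-Hochberg adjusted). The call was lost without Klf9 +/+ replicate 2 (-0.55) or 3 (-0.51), and without Klf9 f/f replicate 2 (-0.50) or 3 (-0.51). Without Klf9 +/+ replicate 1 the log2 fold change of Slc7a11 was -0.90, and without Klf9 f/f replicate 1 it was -1.05, both with the call kept. With no filter on low genes the adjusted p of Slc7a11 was 0.00318 in the same edgeR test, and over the other 12 settings it ran from 0.163 to 1. The meningeal marker sum was highest and lowest in the same samples as Slc7a11, at 822.5, 988.0 and 1727 CPM in Klf9 +/+ and 1071, 513.6 and 955.3 CPM in Klf9 f/f. The choroid plexus and mural sums also peaked in Klf9 +/+ replicate 3 (2638 and 1083 CPM). Both were lowest in Klf9 f/f replicate 2 (21.8 and 432.3 CPM). By summed CPM, no other marker list had both extremes in these samples. By mean log2 CPM the microglia and macrophage list did, at 3.05 in Klf9 +/+ replicate 3 and 2.18 in Klf9 f/f replicate 2. Between the extremes, the meningeal, choroid plexus and mural sums each ordered the samples otherwise than Slc7a11. Klf9 +/+ replicate 1 was above replicate 2 in the mural sum (928.2 and 578.6 CPM) but below it in Slc7a11. Klf9 f/f replicate 1 was below replicate 3 in the choroid plexus sum (27.6 and 404.4 CPM) but above it in Slc7a11. Of the meningeal, choroid plexus and mural markers 8 of 8 each were lower in Klf9 f/f, with 1, 8 and 5 called and none at 0. The part of the cells of these lists in the Slc7a11 level was not tested.

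Bach1 (chr16:87699190-87733591, plus strand) encodes a repressor that competes with Nrf2 at AREs and is known for holding Hmox1 down. It had levels of 11.2, 14.5 and 9.50 CPM in the Klf9 +/+ samples and of 5.50, 9.42 and 8.19 CPM in the Klf9 f/f samples. The Klf9 f/f samples were all below the Klf9 +/+ samples, though 9.50 and 9.42 CPM nearly met. Of all genes tested, 3.39% had groups that did not overlap in either direction. Bach1 fell by 0.60 on the log2 scale, with a standard error of 0.25 (adjusted p = 1.00, edgeR quasi-likelihood test, Benjamini-Hochberg adjusted). The call was lost without Klf9 +/+ replicate 1 (-0.66) or 2 (-0.44) and without Klf9 f/f replicate 1 (-0.35). The endothelial markers (8 of 8 lower, 3 called, none at 0) summed to 302.1, 113.1 and 175.4 CPM in replicates 1, 2 and 3 of Klf9 +/+. In Klf9 f/f their sums were 179.7, 44.0 and 62.8 CPM in the same order. The granule neuron markers (4 higher, 4 lower, 0 called) summed to 1101, 1519 and 964.3 CPM in Klf9 +/+. In Klf9 f/f they summed to 1121, 1285 and 969.5 CPM. Bach1 and the granule neuron sum were highest in replicate 2 of each genotype, and the endothelial sum in replicate 1. The part of the cells of either list in the Bach1 level was not tested. Among the 10 genes of Nrf2 control, 3 were higher and 7 lower in Klf9 f/f, with Bach1 alone called. The small Maf partners of Nrf2 and Bach1 had values of -0.36 (Mafk) and -0.30 (Mafg), with standard errors of 0.18 and 0.15, and neither was called, though Mafk passed without Klf9 f/f replicate 1 (-0.46) and Mafg without Klf9 f/f replicate 2 (-0.43). Of the exon bases of Mafg, 11% overlap a pseudogene or Sirt7. Keap1, which marks Nrf2 for degradation, was at -0.030.

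**Figure D5:**
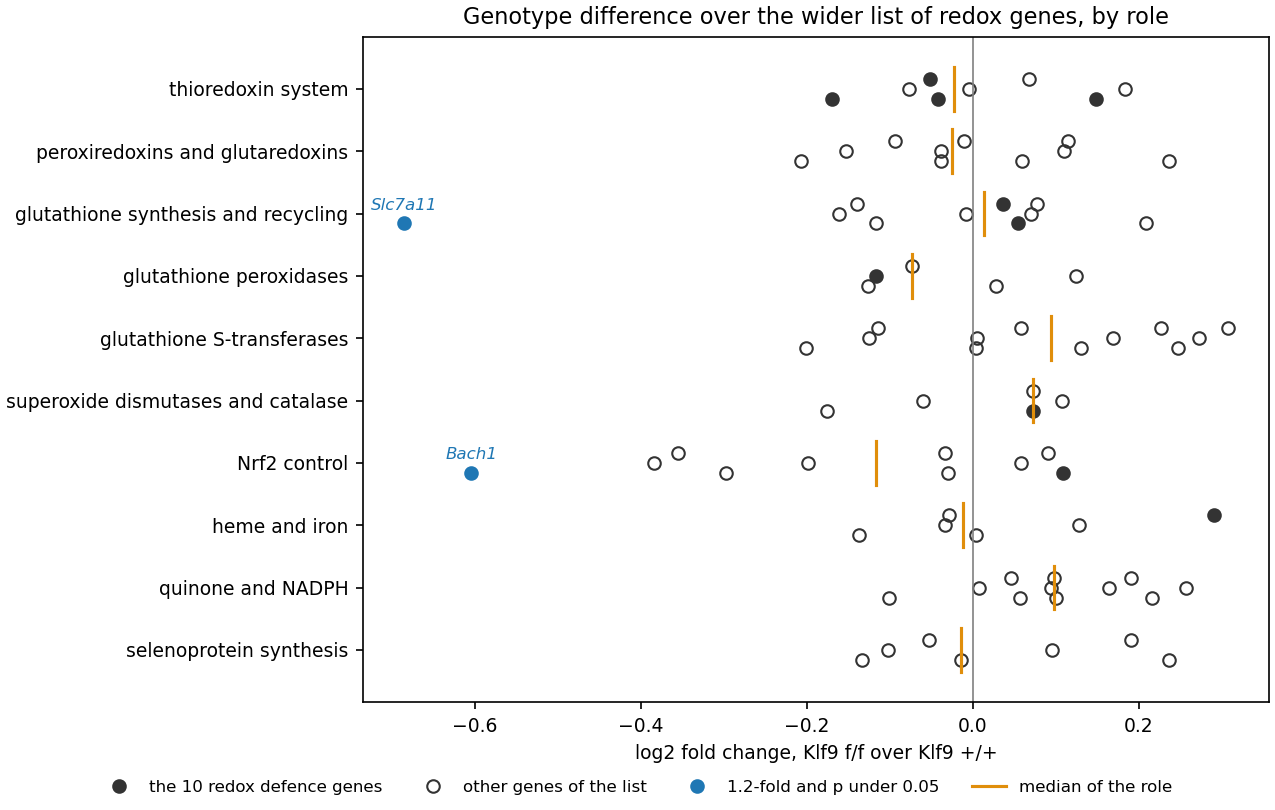
Log2 fold change of Klf9 f/f over Klf9 +/+ (x axis) for 84 redox genes in 10 roles (rows), with filled points for the 10 redox defence genes, open points for the others, blue for the called genes and a bar for the median of each role. Slc7a11 at -0.69 and Bach1 at -0.60 are the called genes, and the medians of the roles lie between -0.12 and 0.098.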

How the data were processed

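Ribosome-bound mRNA was sequenced from 3 Klf9 +/+ and 3 Klf9 f/f samples. Mapping was with STAR to mm9 and counting with HTSeq, blind to strand. The authors deposited the raw counts without normalization, with 5 summary lines that were left out here (16.4% to 26.6% of reads). Names and exon lengths came from GENCODE M1 of the same build, in which 415 of 37620 genes had no name.

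A gene was kept if it exceeded 1 CPM in 1 or more samples, on values not yet scaled by TMM. The 15056 genes kept were fitted in edgeR 4.0.16 (glmQLFit, glmQLFTest; R 4.3.3) with genotype and library series as terms, and p-values were adjusted over all of them after Benjamini and Hochberg. This left 3 residual degrees of freedom. Printed CPM are after TMM scaling, log2 CPM used a prior count of 2, and the SE is the log2 fold change divided by the square root of F. Depth limits the precision of the shallow samples most. The samples are separate pools of mice.

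The genes, roles and marker lists were chosen with earlier results of these data known. Named are the 10 genes, Klf9, the called genes of the wider list and up to 2 others of each of its roles, those with the largest log2 fold change for their SE. Keap1 was chosen after its values were seen. The fit was repeated with no series term, with a likelihood-ratio test, in DESeq2 1.42.0, with upper-quartile scaling, with other filters, in series YTa22 alone and with each sample left out. The tests were checked on simulated data. Promoters were searched with Python 3.11.15, and figures were drawn with matplotlib 3.10.9.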

Additional observations from a re-analysis of the deposited data

Results flagged for a closer look

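Mgst1, a microsomal glutathione S-transferase, differed in direction between the library series. In series YTa22 it had levels of 103.4 and 89.0 CPM in the Klf9 +/+ samples and of 126.7 and 138.3 CPM in the Klf9 f/f samples, so both Klf9 f/f samples lay above. In series YTa32, with a single sample per genotype, its level was 84.0 CPM in the Klf9 +/+ sample and 83.4 CPM in the Klf9 f/f sample. The log2 difference of Klf9 f/f over Klf9 +/+ was 0.47 in the first and -0.010 in the second, a change of -0.47 ± 0.35 (SE; adjusted p of the interaction = 1.00, edgeR quasi-likelihood test, Benjamini-Hochberg adjusted), which did not pass the threshold.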

How the results depend on the processing

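The count of called redox defence genes stayed at 0 of 10 under 13 alternatives, and the 4 that differed between the library series stayed at 4 under the 5 alternatives run for that test. Log2 fold changes near 0 changed sign: Txnrd1 was at 0.091 without Klf9 +/+ replicate 2 (-0.15 to 0.091 with each sample left out) and Txn2 at 0.092 without Klf9 f/f replicate 1 (-0.18 to 0.092). In series YTa22 alone Gclc was at -0.028 and Gclm at -0.023, and with each sample left out they ran from -0.029 to 0.10 and from -0.024 to 0.14. The other 6 members kept their sign, but with a sample left out Txn1 came to -0.009, Nfe2l2 to 0.004 and Sod2 to 0.003 at the nearest to 0. Over all genes, the 274 called up became 50 without the series term, 513 with no filter, 163 in YTa22 alone and 130 to 493 with each sample left out, and the 376 called down became 163, 926, 202 and 209 to 719. The 0 genes with an adjusted p under 0.05 (edgeR quasi-likelihood test, Benjamini-Hochberg adjusted) became 58 with the likelihood-ratio test, 39 with DESeq2, 334 with no filter, 13 in YTa22 alone and 0 to 15 with each sample left out. In the wider list, calls up (0) became 1 in YTa22 alone and 0 to 1 with each sample left out, and calls down (2) became 0 without the series term, 1 in YTa22 alone and 0 to 2 with each sample left out. With a sample left out, the call up was Mgst1, Gstm1, Eefsec or Nnt, and the calls down were from Slc7a11, Bach1, Mafk and Mafg. Alternatives for Bach1 and Slc7a11 were chosen after seeing the data, and without the series term both lost their call (-0.61 and -0.73), as did Slc7a11 in YTa22 alone (-0.51). The causes were not tested. No paired analysis was possible because the labels give no replicate numbers, and those used here follow the order of the samples within a genotype. The library series, the tie between samples that the library names show, is a term of the fit. Series YTa32 holds 1 sample per genotype, and the 95% intervals include changes of up to 1.53-fold in single genes.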

Other observations

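Of the other redox roles, the genes of quinone reduction and NADPH supply were mostly higher in Klf9 f/f, 10 of 11, and their median on the log2 scale was 0.098 with 0 called, where 50.2% of all genes tested were higher. Nnt, the mitochondrial transhydrogenase that makes NADPH, was at 0.26 ± 0.17 (SE). Tkt, a transketolase of the pentose phosphate pathway, was at 0.19 ± 0.13 (SE). Among the glutathione S-transferases, 9 of 12 tested were higher with a median of 0.094, and 0 were called. The detoxifying Mgst1 and Gstz1 had values of 0.31 and 0.25, with standard errors of 0.15 and 0.12. Prdx6, a peroxiredoxin measured at 1519 to 2541 CPM, was at 0.24 ± 0.16 (SE) and overlapped between the genotypes. Eefsec is the elongation factor that inserts selenocysteine into proteins such as Gpx1 and the thioredoxin reductases. It was higher in 3 of 3 Klf9 f/f samples than in every Klf9 +/+ sample (59.8, 71.4 and 61.1 against 54.0, 57.5 and 51.7 CPM). Of all genes tested, 3.39% had groups that did not overlap in either direction. Eefsec differed by 0.24 ± 0.13 (SE) on the log2 scale, with no call. Of the astrocyte markers, 10 of 10 were higher in Klf9 f/f and 5 of 10 were called, and their part in these levels was not tested. Further genes named by the same rule were not called. Txnrd3, a testis-enriched reductase, was at 0.18, the cytosolic glutaredoxin Glrx at -0.21, the gamma-glutamyltransferase Ggt7 at 0.21 and Chac2, which degrades glutathione, at -0.16. The peroxidase Gpx8 was at -0.13, catalase (Cat) at 0.11, the extracellular dismutase Sod3 at -0.18, the biliverdin reductase Blvra at 0.13 and Sepsecs, of selenocysteine synthesis, at 0.19, all on the log2 scale.

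Across the library series, 9 of 10 peroxiredoxins and glutaredoxins and 8 of 12 glutathione S-transferases were lower in YTa32 at an adjusted p under 0.05 (edgeR quasi-likelihood test, Benjamini-Hochberg adjusted), against 16.6% of all genes tested. That share depended on exon length. It was 54.7% for genes under 1.5 kb, 20.4% for those of 1.5 to 3 kb and 6.57% for those of 3 kb and over. The part of exon length, depth and read assignment in the differences of these families was not tested.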
